A study of Mus musculus with 18 samples.

Results

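The genes described here are 31 core macrophage genes, listed by symbol: general genes of macrophages and other myeloid cells, without those of MHC class II or of the interferon response. They are 31 of the 24493 genes in the deposited table, and all 31 were among the 13422 genes tested. RNA sequencing was done on mouse pancreatic tumor cells (strain C57BL/6) that had been implanted under the skin and then sorted. In the line 6419c5 and in the line 6694c2 there were a pair of clones with a knockout (KO) of Kdm3a, called clone A and clone B here, and wild-type (WT) cells. The 18 libraries form 6 groups of 3, and per the labels none was treated. Kdm3a encodes a demethylase of histone H3 lysine 9. A knockout group is 1 clone, so its libraries measure that clone. The labels give no age, no sort marker and no way of knockout. They do not tie the replicates to separate animals either, so the p-values measure only the spread between these libraries.

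Macrophages are phagocytes of the tissue that also make up much of the leukocyte infiltrate of pancreatic tumors. They arise from monocytes or fetal precursors under the transcription factor PU.1, and they survive on signals through the CSF1 receptor. They take up dying cells and particles through scavenger and Fc receptors, digest them in lysosomes, and secrete complement C1q, lysozyme and apolipoprotein E. The values are TPM, a relative abundance of transcripts, which correct for gene length and have a fixed total per library. In such bulk values fewer macrophages and less of a transcript per macrophage cannot be told apart. Nor do the values tell whether a member's transcripts came from macrophages, from the tumor cells or from other cells. Reads per library are not given with TPM, so the depth is unknown.

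PU.1, the product of the member gene Spi1, binds purine-rich sites with the core GAGGAA. A window of 250 bases before to 50 bases after the start was given by RefSeq (build GRCm38.p6) for 22 of the 31 members. There was no entry for Adgre1, C1qa, Cd14, Cd86, Csf1r, Msr1, Sirpa, Spi1 and Tyrobp. The letters GAGGAA or their reverse complement TTCCTC were found in 15 of these 22 windows, which is 68.18%, against 31.25% of the 27025 genes of the table. Mrc1, Apoe, Ctss and Cd68 are shown because they were the members with the most matches, ties going to the higher level. The 250 bases before each start are given 5′ to 3′ on the strand of the gene, with the matches in capitals. They lie at chr2:14229164-14229413 (plus strand) for Mrc1, chr7:19699189-19699438 (minus) for Apoe, chr3:95526536-95526785 (plus) for Ctss and chr11:69666171-69666420 (minus) for Cd68.
Mrc1: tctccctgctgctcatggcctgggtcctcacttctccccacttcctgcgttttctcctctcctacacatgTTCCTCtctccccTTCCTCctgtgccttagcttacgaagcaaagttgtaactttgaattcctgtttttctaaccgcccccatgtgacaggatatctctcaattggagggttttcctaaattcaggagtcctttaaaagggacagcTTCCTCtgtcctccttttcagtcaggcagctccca
Apoe: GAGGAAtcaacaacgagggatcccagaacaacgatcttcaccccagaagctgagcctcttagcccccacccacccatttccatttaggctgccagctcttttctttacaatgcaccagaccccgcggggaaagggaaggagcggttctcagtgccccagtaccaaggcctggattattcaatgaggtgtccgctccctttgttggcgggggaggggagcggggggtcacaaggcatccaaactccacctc
Ctss: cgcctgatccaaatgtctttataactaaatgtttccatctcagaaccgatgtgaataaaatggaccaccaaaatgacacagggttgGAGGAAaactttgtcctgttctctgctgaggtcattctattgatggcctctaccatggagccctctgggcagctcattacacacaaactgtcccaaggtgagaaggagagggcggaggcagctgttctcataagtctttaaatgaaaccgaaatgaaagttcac
Cd68: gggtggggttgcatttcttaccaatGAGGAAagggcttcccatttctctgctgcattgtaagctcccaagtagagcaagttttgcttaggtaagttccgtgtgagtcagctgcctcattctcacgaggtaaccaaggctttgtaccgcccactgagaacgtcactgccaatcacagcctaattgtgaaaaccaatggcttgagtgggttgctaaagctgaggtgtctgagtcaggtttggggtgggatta
The window of Mrc1 held 3 matches, a number reached by 0.788% of the genes of the table. The other 3 windows held 2 each, and in each of them the second match lies at or after the start and outside the stretch printed. A match of letters is a description of the window and does not show that PU.1 binds there.

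The targeted transcript was lower by limma in 3 of the 4 clones and present in all, and in 6419c5 clone A it was not called (log2 change -0.45, SE 0.21, limma adjusted p = 0.299). Kdm3a stood at 21.6 to 24.6 TPM for clone A of 6419c5 and at 12.3 to 18.9 TPM for clone B, against 24.1 to 38.2 TPM in its WT. In 6694c2 it stood at 26.3 to 29.8 TPM for clone A and at 25.2 to 30.2 TPM for clone B, against 38.9 to 67.7 TPM in WT. The sorted cells carried the epithelial genes of the tumor, 6 of which summed to between 5379 and 12183 TPM per library. Between 12213 and 13590 genes had at least 1 TPM, and the entry Mir6236 took from 6.04% to 17.36% of all TPM. In 3 libraries, picked after the data were seen, other cells or the members stood apart from their group. These are replicate 3 of 6419c5 WT, replicate 3 of 6694c2 clone B and replicate 1 of 6694c2 clone A. Many counts, though not all, are also given without 1 or all of them. Other groups were wide as well: the summed TPM of the members ran from 525 to 3857 in 6694c2 WT.

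The 31 members together took between 0.0525% and 1.874% of all TPM. Their summed level was 5242, 18740 and 13698 TPM in the 3 libraries of 6419c5 clone A, 861, 752 and 1187 TPM in clone B, and 2742, 4169 and 16282 TPM in WT. In 6694c2 the sum was 11826, 6827 and 7939 TPM in clone A, with 1056, 1061 and 6737 TPM in clone B, and 1376, 3857 and 525 TPM in WT. Clone B of 6419c5 was low in all 3 libraries and did not overlap with its WT, and clone A of 6694c2 was high in all 3 and did not overlap with its WT. Replicate 3 was far above the other libraries in 6419c5 WT and in 6694c2 clone B. The highest and the lowest of the 18 sums differed 35.69-fold. Apoe and Lyz2 alone made up between 22.5% and 54.76% of the sum.

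**Figure D1:**
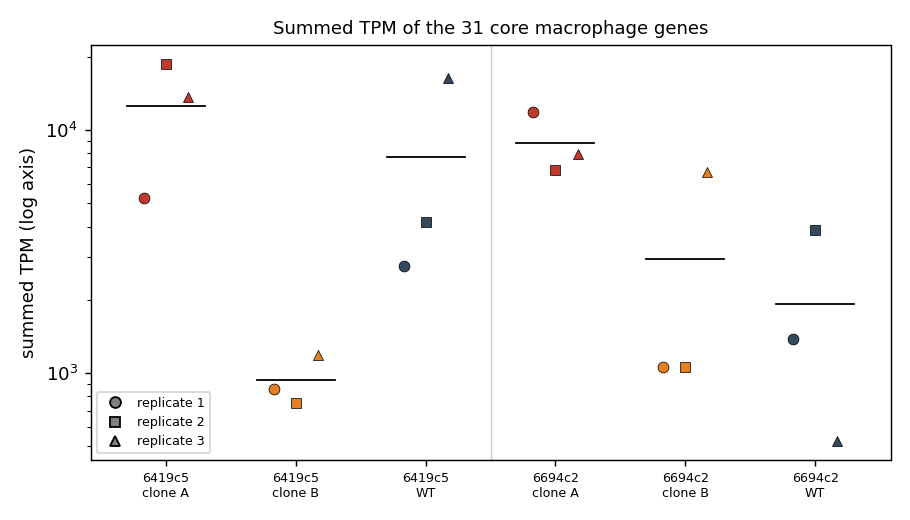
Summed TPM of the 31 core macrophage genes in each library (log axis), by group, with the bar at the mean of 3 libraries and the marker shape giving the replicate. The 3 libraries of 6419c5 clone B lie between 752 and 1187 TPM, below all 3 WT libraries of that line, and the 3 of 6694c2 clone A lie between 6827 and 11826 TPM, above all 3 WT libraries of theirs.

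Most members had the same highest library within a group. In 6419c5 WT replicate 3 was the highest of its group for 31 of 31 members, and so was replicate 3 of 6694c2 clone B. In 6419c5 clone A replicate 2 was highest for 29 members, the exceptions being Aif1 and Cybb, and in 6419c5 clone B replicate 3 was highest for 27, the exceptions being Ptprc, Cd53, Cx3cr1 and Cd86. In 6694c2 clone A replicate 1 was highest for 28 members, the exceptions being Cd53, Pf4 and Ms4a7. In 6694c2 WT replicate 2 was highest for 27 and replicate 3 lowest for 27. The lowest library was split among the members in both clones B: in 6419c5 it was replicate 1 for 12, replicate 2 for 18 and replicate 3 for 1, and in 6694c2 replicate 1 for 16 and replicate 2 for 15. The spread within a group was wide: the median SD of the members on the log2(TPM + 1) scale was 0.88, 0.36 and 1.28 in 6419c5 clone A, clone B and WT, against 0.16, 0.15 and 0.21 for all genes tested. In 6694c2 it was 0.29, 1.45 and 1.38 in clone A, clone B and WT, against 0.13, 0.12 and 0.24 for all genes tested.

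The complement genes C1qa, C1qb and C1qc encode the chains of C1q, the recognition molecule of the classical pathway that macrophages themselves secrete. They lie beside each other on chromosome 4 between 136880129 and 136898803 (minus strand, GRCm38). C1qa, the highest of them, had 383, 1574 and 1221 TPM in 6419c5 clone A, with 37.6, 24.7 and 52.9 TPM in clone B, and 151, 299 and 1235 TPM in WT. In 6694c2 it had 791, 553 and 626 TPM in clone A, with 51.4, 50.4 and 578 TPM in clone B, and 89.1, 362 and 15.3 TPM in WT. The clone B libraries of 6419c5 lay below every WT library, and those of 6694c2 clone A above every WT library. C1qc, the lowest, had 267, 1152 and 889 TPM in 6419c5 clone A, with 24.4, 17.3 and 35.9 TPM in clone B, and 99.9, 228 and 902 TPM in WT. It had 542, 397 and 448 TPM in 6694c2 clone A, with 32.4, 32.7 and 398 TPM in clone B, and 56.4, 258 and 11.4 TPM in WT, a pattern like that of C1qa. C1qb ranged from 9.15 to 1342 TPM over the 18 libraries. The 3 genes moved in nearly fixed proportion: C1qa stood at 1.102 to 1.67 times C1qb and C1qc at 0.746 to 1.24 times C1qb.

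Csf1r encodes the receptor for CSF1 and IL-34, on which most macrophages depend, and Adgre1 encodes F4/80, the classical surface marker of mouse macrophages. Csf1r (chromosome 18) had 78.1, 363 and 295 TPM in 6419c5 clone A, with 8.06, 6.99 and 10.8 TPM in clone B, and 40.2, 84.0 and 263 TPM in WT. In 6694c2 its level was 193, 118 and 114 TPM in clone A, with 9.94, 10.3 and 112 TPM in clone B, and 14.99, 70.7 and 4.39 TPM in WT. Its clone B level in 6419c5 was low in every library, while in 6694c2 clone B replicates 1 and 2 lay within the WT range and replicate 3 above it. Adgre1 (chromosome 17, 57358691 to 57483527, plus strand) had 24.7, 112 and 79.8 TPM in 6419c5 clone A, with 2.58, 2.47 and 3.15 TPM in clone B, and 11.96, 25.2 and 76.99 TPM in WT. Its 6694c2 values were 54.7, 36.97 and 38.01 TPM in clone A, with 2.71, 2.91 and 34.7 TPM in clone B, and 5.002, 15.6 and 1.25 TPM in WT. Adgre1 followed Csf1r closely, at 0.220 to 0.354 times its level in all 18 libraries. Spi1, which encodes PU.1, ranged from 1.73 to 102 TPM.

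Fcer1g and Tyrobp (DAP12) encode adaptors whose ITAM motifs pass signals of Fc receptors, TREM2 and related receptors to the kinase SYK. Fcer1g (chromosome 1, 171229572 to 171234365, minus strand) had 118, 413 and 316 TPM in 6419c5 clone A, with 9.28, 12.3 and 25.7 TPM in clone B, and 49.2, 84.7 and 344 TPM in WT. In 6694c2 the values of Fcer1g were 308, 217 and 240.4 TPM in clone A, with 20.04, 23.1 and 171 TPM in clone B, and 23.3, 62.9 and 8.49 TPM in WT. All 3 libraries of 6694c2 clone A were more than 3 times as high as the highest WT library of that line. Fcgr1, the high-affinity receptor for IgG, was the lowest of this role, with 10.4, 42.7 and 29.5 TPM in 6419c5 clone A, with 0.889, 0.586 and 2.09 TPM in clone B, and 3.83, 8.49 and 25.1 TPM in WT. Its 6694c2 libraries had 18.4, 13.9 and 14.8 TPM in clone A, with 1.097, 1.92 and 12.3 TPM in clone B, and 1.19, 4.76 and 0.575 TPM in WT. Clone B of 6419c5 was below WT in every library again. Tyrobp ranged from 5.57 to 365 TPM, and Trem2, a lipid receptor of macrophages, from 1.68 to 77.3 TPM.

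**Figure D2:**
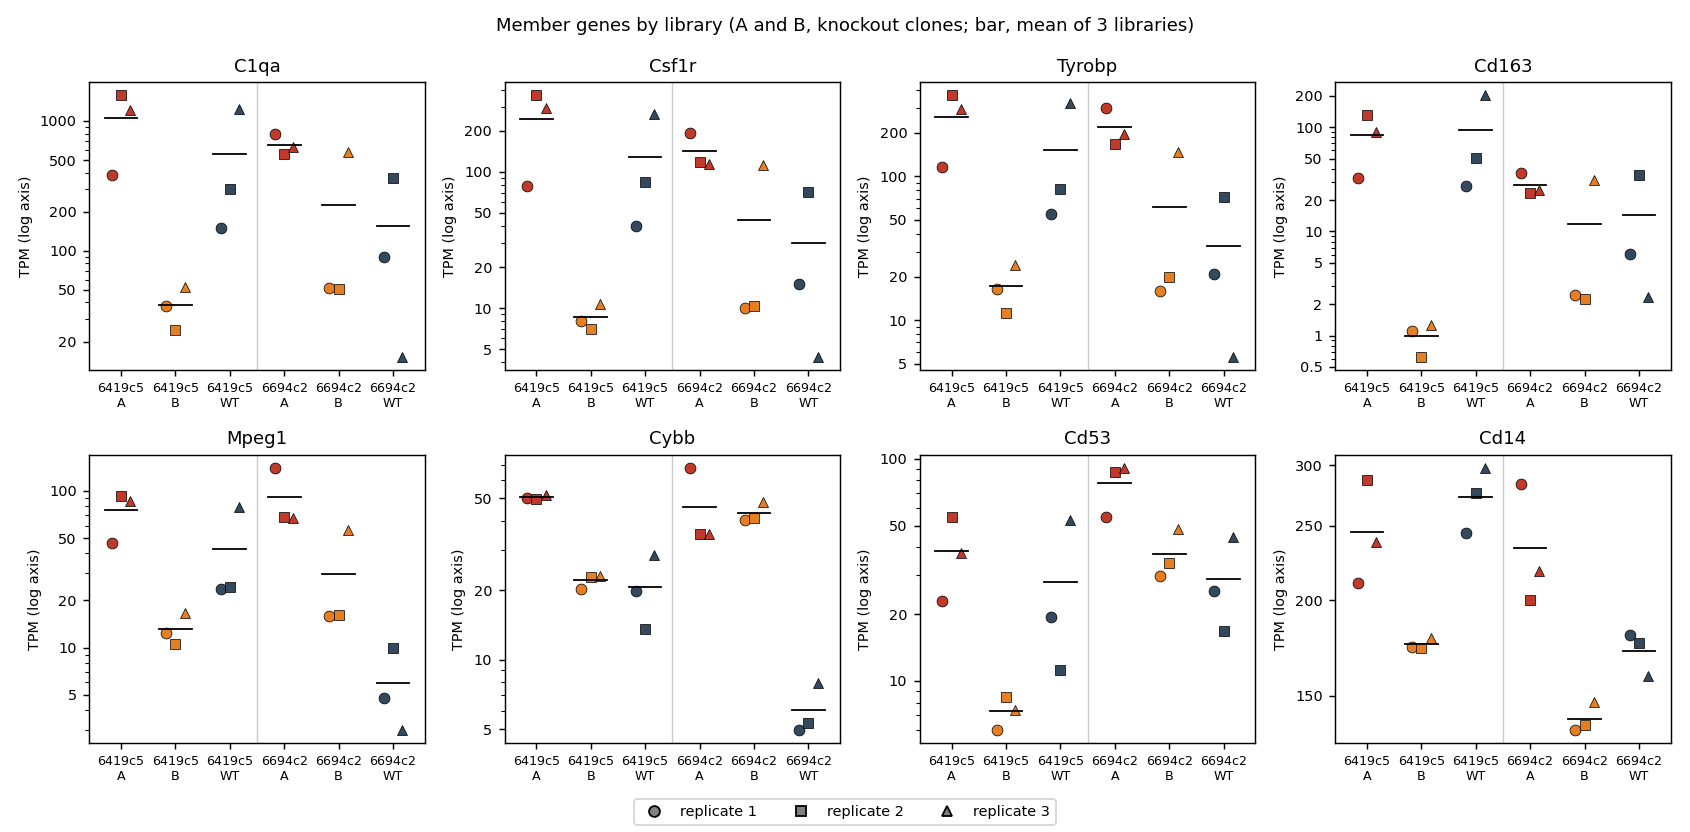
TPM of 8 members in each of the 18 libraries (log axes), with knockout clones A and B left of WT in each line, the marker shape giving the replicate and the bar the mean of 3 libraries. C1qa, Csf1r and Tyrobp show a like pattern over the libraries, with C1qa between 15.3 and 1574 TPM, whereas Cybb stood at 20.3 to 67.5 TPM in all knockout libraries and at 4.98 to 28.5 TPM in WT, and Cd14 at 136 to 297 TPM throughout.

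The scavenger and efferocytosis receptors bind modified lipoproteins, glycoproteins and dying cells. Mrc1, the mannose receptor CD206, had 93.9, 339 and 207 TPM in 6419c5 clone A, with 9.18, 9.89 and 11.3 TPM in clone B, and 58.7, 60.3 and 276 TPM in WT (chromosome 2, 14229392 to 14332057, plus strand). In 6694c2 Mrc1 had 120.3, 94.95 and 94.2 TPM in clone A, with 26.2, 25.98 and 93.1 TPM in clone B, and 25.2, 45.7 and 18.6 TPM in WT. Its 6419c5 clone B level was close in the 3 libraries and far below the lowest WT library. Mertk, a receptor kinase for dying cells, was the lowest, with 5.28, 16.5 and 14.1 TPM in 6419c5 clone A, with 1.26, 1.55 and 2.203 TPM in clone B, and 3.79, 6.44 and 21.5 TPM in WT. In 6694c2 Mertk had 9.57, 6.601 and 7.29 TPM in clone A, with 1.13, 0.8302 and 5.195 TPM in clone B, and 1.59, 3.34 and 0.658 TPM in WT. Mertk lay above WT in 6694c2 clone A and below WT in 6419c5 clone B, and overlapped with WT in the other clones. Cd163, the receptor for hemoglobin bound to haptoglobin, had 32.4, 131 and 89.8 TPM in 6419c5 clone A, with 1.11, 0.626 and 1.27 TPM in clone B, and 27.2, 50.9 and 202 TPM in WT. In 6694c2 Cd163 had 35.99, 23.3 and 25.1 TPM in clone A, with 2.47, 2.25 and 30.96 TPM in clone B, and 6.12, 34.5 and 2.34 TPM in WT. It was at about 1 TPM in 6419c5 clone B, and in 6694c2 clone A it overlapped with WT, the sole member to do so there. Msr1, the class A scavenger receptor, ranged from 1.03 to 44.1 TPM, and Sirpa, the receptor for the CD47 signal, from 1.30 to 85.1 TPM.

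Among the genes of the lysosome and of secretion, Apoe, which encodes the lipid carrier apolipoprotein E, was the highest of all 31 members. Apoe (chromosome 7, 19696109 to 19699188, minus strand) had 1584, 6894 and 4449 TPM in 6419c5 clone A, with 161, 131 and 252 TPM in clone B, and 658, 1166 and 5310 TPM in WT. In 6694c2 Apoe had 2880, 1618 and 2013 TPM in clone A, with 171, 165 and 1679 TPM in clone B, and 334, 1278 and 52.96 TPM in WT. The spread within 6419c5 WT and 6694c2 WT was of the same kind as for C1qa. Mpeg1, which encodes the pore-forming perforin-2 of macrophages, had 46.6, 92.1 and 86.7 TPM in 6419c5 clone A, with 12.5, 10.6 and 16.6 TPM in clone B, and 23.6, 24.3 and 79.1 TPM in WT (chromosome 19, 12460779 to 12465283, plus strand). In 6694c2 Mpeg1 had 139, 68.6 and 67.1 TPM in clone A, with 15.9, 16.2 and 56.2 TPM in clone B, and 4.76, 9.97 and 3.001 TPM in WT. Every knockout library of 6694c2 lay above every WT library for Mpeg1. Lyz2, the macrophage lysozyme, ranged from 65.2 to 3595 TPM, the protease gene Ctss (cathepsin S) from 14.7 to 592 TPM, Cd68 (a lysosomal membrane protein) from 5.75 to 298 TPM, and the protease gene Lgmn (legumain) from 63.5 to 585 TPM.

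Ptprc (CD45), Cd53 and Laptm5 are genes of leukocytes in general. Laptm5, a lysosomal membrane protein and the highest of them, had 95.9, 377 and 287 TPM in 6419c5 clone A, with 13.4, 11.3 and 18.3 TPM in clone B, and 53.1, 111 and 330.3 TPM in WT. In 6694c2 Laptm5 had 281, 168 and 159 TPM in clone A, with 21.9, 18.4 and 140 TPM in clone B, and 22.9, 81.4 and 8.27 TPM in WT, a pattern like that of C1qa. Ptprc, the leukocyte phosphatase, had 5.898, 20.2 and 15.8 TPM in 6419c5 clone A, with 1.19, 1.88 and 1.36 TPM in clone B, and 5.59, 5.04 and 17.1 TPM in WT. In 6694c2 Ptprc had 31.9, 13.4 and 13.5 TPM in clone A, with 2.18, 2.31 and 9.997 TPM in clone B, and 0.985, 2.82 and 1.01 TPM in WT, with clone A above all others. Cd53, a tetraspanin, kept another order, with 54.9, 87.1 and 90.6 TPM in 6694c2 clone A, with 29.5, 33.98 and 48.1 TPM in clone B, and 25.4, 16.8 and 44.4 TPM in WT. Replicate 3 of that WT was the lowest library for C1qa and the highest of its group for Cd53. In 6419c5 Cd53 had 22.8, 54.5 and 37.7 TPM in clone A, with 6.04, 8.46 and 7.42 TPM in clone B, and 19.5, 11.2 and 53.2 TPM in WT, with clone B below the rest.

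Cd14, the co-receptor for bacterial lipopolysaccharide, was the flattest member. It had 210.4, 287 and 239 TPM in 6419c5 clone A, with 174, 173 and 179 TPM in clone B, and 245, 276 and 297 TPM in WT. In 6694c2 Cd14 had 284, 200.2 and 219 TPM in clone A, with 136, 137 and 147 TPM in clone B, and 180.3, 176 and 159 TPM in WT. In both lines clone B was the lowest group and lay below every WT library. Cd86, a co-stimulatory ligand for T cells and the lowest of its role, had 2.77, 6.89 and 5.84 TPM in 6419c5 clone A, with 0.282, 0.479 and 0.443 TPM in clone B, and 2.25, 1.77 and 9.898 TPM in WT. In 6694c2 Cd86 had 8.45, 5.72 and 5.33 TPM in clone A, with 0.708, 0.684 and 5.62 TPM in clone B, and 0.371, 0.9298 and 0.163 TPM in WT. Clone A of 6694c2 was above every WT library of its line and clone B of 6419c5 below every one of its own. Cx3cr1, the fractalkine receptor, ranged from 1.06 to 11.9 TPM, and Pf4, which encodes the chemokine CXCL4, from 6.39 to 336 TPM.

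Cybb encodes NOX2 (gp91-phox), the catalytic subunit of the phagocyte NADPH oxidase. Cybb (chromosome X, 9435252 to 9487771, minus strand) had 49.97, 49.9 and 51.6 TPM in 6419c5 clone A, with 20.3, 22.9 and 23.03 TPM in clone B, and 19.9, 13.6 and 28.5 TPM in WT. In 6694c2 Cybb had 67.5, 35.02 and 35.2 TPM in clone A, with 40.4, 41.2 and 48.2 TPM in clone B, and 4.98, 5.304 and 7.94 TPM in WT. In 6694c2 both clones were above every WT library, and in 6419c5 clone A was above and clone B within the WT range. Aif1, which encodes the actin-binding protein IBA1, had 11.3, 41.1 and 44.3 TPM in 6419c5 clone A, with 1.36, 2.46 and 3.004 TPM in clone B, and 4.52, 8.17 and 27.8 TPM in WT. In 6694c2 Aif1 had 31.4, 21.2 and 28.98 TPM in clone A, with 3.11, 3.396 and 23.2 TPM in clone B, and 1.53, 5.596 and 0.712 TPM in WT. Clone A of 6694c2 was above every WT library for Aif1, and clone B of 6419c5 below every one. Ms4a7, a membrane protein of macrophages, ranged from 0.480 to 63.3 TPM.

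By group mean the commonest order, from the highest, was 6419c5 clone A, 6694c2 clone A, 6419c5 WT, 6694c2 clone B, 6694c2 WT and 6419c5 clone B. Clone A of 6419c5 was the highest group for 21 members and clone B of 6419c5 the lowest for 26. For C1qa, C1qb and C1qc every neighbour in that order overlapped with the next. Cd14 and Cd163 were highest in 6419c5 WT, and Cd53, Cx3cr1 and Mpeg1 were among those highest in 6694c2 clone A. Cd163 in 6419c5 clone B lay apart from the next higher group, as did Cd53.

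In 6419c5 the comparison of each clone with WT asks whether cells of the knockout clones carried other levels of these genes. In clone B at least 1 member fell in every role except that of Aif1, Ms4a7 and Cybb. By limma, 21 of 31 members fell in clone B, where 18.9% of all genes tested were called in either direction and 11.0% were lower. The median log2 change of the members was -2.46, against -0.003 for all genes. In 30 of 31 members all clone B libraries lay below all WT libraries, which held for 20.3% of all genes, and Cybb was the exception. The largest falls were those of Cd163, with a mean of 1.001 ± 0.335 TPM in clone B and 93.5 ± 95.01 TPM in WT (log2 change -5.07, SE 0.96, limma adjusted p = 0.00208), C1qc (log2 change -3.42, SE 1.1, limma adjusted p = 0.0422), C1qb (-3.38) and Csf1r (log2 change -3.36, SE 0.995, limma adjusted p = 0.0287). All 3 C1q genes, all 5 scavenger and efferocytosis receptors and all 3 leukocyte-wide genes fell. Of the lineage genes Csf1r and Adgre1 fell, of the Fc and ITAM genes Fcgr1 and Fcer1g, and of the lysosomal and secreted genes Cd68, Lyz2 and Ctss. Spi1, Tyrobp, Trem2, Lgmn, Mpeg1, Apoe, Cx3cr1, Aif1 and Ms4a7 had values from -3.19 (Apoe) to -0.88 (Cx3cr1) and did not pass, and Cybb had 0.15 (limma adjusted p = 0.768). The count fell to 3 without WT replicate 3, to 4, 3 and 9 without clone B replicate 1, 2 or 3, and to 6 without the 3 libraries that stand apart, and the median without WT replicate 3 was -1.74. In these libraries the summed neutrophil genes were at 13.3 to 26.2 TPM in clone B and 51.1 to 78.6 TPM in WT. Of the 8 tested of 10 neutrophil genes 2 were lower. The summed fibroblast genes were at 274 to 299 TPM in clone B and 313 to 624 TPM in WT, with none of the 9 tested called. Mast cell genes summed to 23.8 to 27.1 TPM in clone B and 114.8 to 135.1 TPM in WT, with 1 of the 2 tested of 5 lower. Their part in the result was not tested.

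Clone A of 6419c5 did not share these falls. Of 31 members 1 was called by limma, where 4.79% of all genes were called and 3.14% were higher. That member was Cybb, which rose to 50.5 ± 0.9704 TPM in clone A, against 20.7 ± 7.51 TPM in WT (log2 change 1.31, SE 0.26, limma adjusted p = 0.00614), with all 3 clone A libraries above all 3 WT libraries. The member median was 0.91, against 0.05 for all genes, and 30 of 31 members had a value above 0 with libraries that overlapped with WT for all but Cybb (13.1% of all genes lay above). The median moved with single libraries: it was 1.56 without WT replicate 3, 0.45 without WT replicate 1, 1.39 without clone A replicate 1 and 0.53 without clone A replicate 2. Without the 3 libraries that stand apart 4 members were higher. In a fit of the libraries of the compared groups alone the call of Cybb was lost (limma adjusted p = 0.0722). Summed skeletal muscle genes stood at 17.7 to 78.3 TPM in clone A and 4.84 to 10.6 TPM in WT, with 4 of the 5 tested of 6 higher. Fibroblast genes summed to 1034 to 1063 TPM in clone A and 313 to 624 TPM in WT, endothelial genes to 41.7 to 43.03 TPM in clone A and 14.5 to 23.4 TPM in WT, and T and NK cell genes to 13.4 to 21.01 TPM in clone A and 4.07 to 8.30 TPM in WT. These sums did not overlap, none of the tested genes of those 3 lists was called, and the part of these cells was not tested.

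Between the knockout clones of 6419c5 every member was called. All 31 were lower in clone B than in clone A by limma, where 26.3% of all genes were called and 18.9% were lower. In all 31 every clone B library lay below every clone A library, which held for 28.3% of all genes. The median difference was -3.56, against -0.05 for all genes. Cd163 (log2 change -5.22, SE 0.96, limma adjusted p = 0.00134), C1qc (-4.66), C1qa (-4.59) and C1qb (-4.50) differed most and Cd14 (log2 change -0.47, SE 0.13, limma adjusted p = 0.0124) least. Cybb, which did not fall against WT in clone B, was lower than in clone A with 22.1 ± 1.55 TPM in clone B, against 50.5 ± 0.9704 TPM in clone A. Leaving out any 1 library left between 26 and 31 of these calls. Summed fibroblast genes stood at 274 to 299 TPM in clone B, against 1034 to 1063 TPM in clone A, with 6 of the 9 tested of 10 lower, and summed skeletal muscle genes at 3.75 to 5.93 TPM in clone B, against 17.7 to 78.3 TPM in clone A, with 5 of the 5 tested of 6 lower, and their part was not tested.

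**Figure D3:**
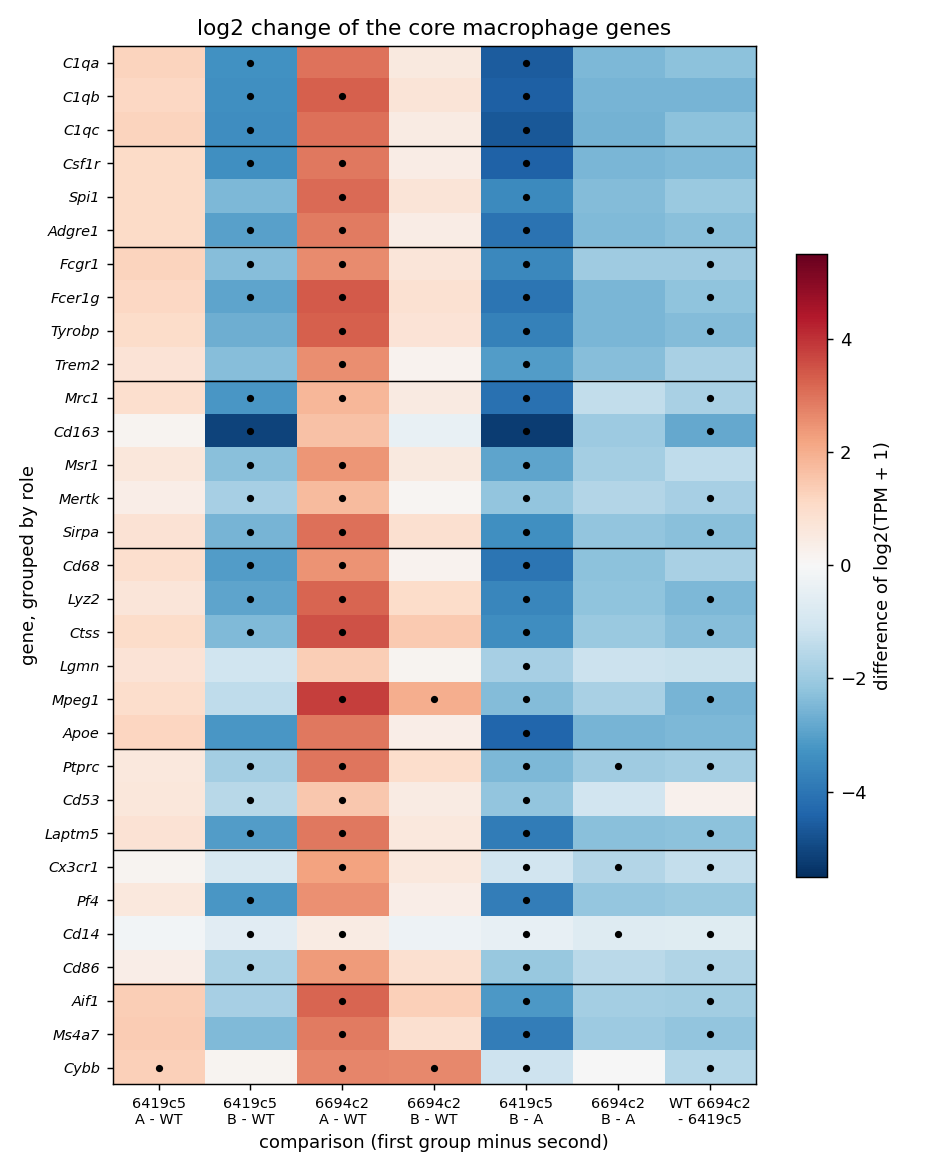
Differences of log2(TPM + 1) for the 31 members (rows, grouped by role) in 7 comparisons (columns, first group minus second), with red for higher and blue for lower in the first group and a dot where limma's adjusted p was under 0.05. In 6419c5 clone B minus WT 21 members are lower, in 6694c2 clone A minus WT 25 are higher, and in 6419c5 clone B minus clone A all 31 are lower. Of all genes tested, 11.0%, 14.7% and 18.9% were called in these directions.

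In 6694c2 the clone with high macrophage transcripts was clone A. By limma 25 of 31 members rose in clone A, where 21.7% of all genes were called in either direction and 14.7% were higher. The median change was 2.86, against 0.11 for all genes. In 30 of 31 members all clone A libraries lay above all WT libraries, which held for 24.7% of all genes. Mpeg1 rose most, with 91.7 ± 41.3 TPM in clone A and 5.91 ± 3.62 TPM in WT (log2 change 3.79, SE 0.55, limma adjusted p = 0.000241). It was followed by Ctss (log2 change 3.50, SE 0.74, limma adjusted p = 0.00404), Fcer1g (log2 change 3.37, SE 0.87, limma adjusted p = 0.0134) and Tyrobp (log2 change 3.28, SE 0.91, limma adjusted p = 0.019). All 4 Fc and ITAM genes, all 3 lineage genes and all 3 leukocyte-wide genes rose, with 4 of 5 scavenger and efferocytosis receptors and 4 of 6 lysosomal and secreted genes. So did Cybb (log2 change 2.68, SE 0.26, limma adjusted p = 4.94e-06), Aif1 and Ms4a7. C1qa, C1qc, Cd163, Lgmn, Apoe and Pf4 did not pass, with values from 1.34 (Lgmn) to 3.02 (C1qc). The count depended on single libraries: it was 13 without WT replicate 1, 8 without WT replicate 3, and 11, 16 and 14 without clone A replicate 1, 2 or 3. Other cells moved in the same libraries. Neutrophil genes summed to 167 to 349 TPM in clone A and 18.7 to 27.9 TPM in WT, with 6 of the 8 tested of 10 higher and Camp and Ngp at 0 in WT. T and NK cell genes summed to 48.1 to 65.9 TPM in clone A and 2.77 to 7.46 TPM in WT (5 of the 6 tested of 9 higher), and fibroblast genes to 733 to 1071 TPM in clone A and 156 to 273 TPM in WT (8 of the 9 tested of 10). Endothelial genes reached 223 TPM in clone A replicate 1, against 34.7 and 31.04 TPM in replicates 2 and 3 and 5.60 to 10.3 TPM in WT. Erythroid genes went the other way, with 120.6 to 165.3 TPM in clone A and 291.9 to 745.5 TPM in WT (2 of the 4 tested of 5 lower). Epithelial genes summed to 5379 to 5934 TPM in clone A and 6506 to 8235 TPM in WT (3 of 6 lower). The part of these cells in the result was not tested.

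Clone B of 6694c2 was called for 2 members by limma, where 14.5% of all genes were called and 10.6% were higher. Cybb rose to 43.3 ± 4.28 TPM in clone B, against 6.08 ± 1.63 TPM in WT (log2 change 2.66, SE 0.26, limma adjusted p = 3.75e-06), and Mpeg1 to 29.4 ± 23.2 TPM in clone B, against 5.91 ± 3.62 TPM in WT (log2 change 2.01, SE 0.55, limma adjusted p = 0.0231). For both, and for Cx3cr1, all clone B libraries lay above all WT libraries, which held for 24.0% of all genes, and for Cd14 all lay below (8.06%). The call of Cybb held in 29 of 29 alternative settings and that of Mpeg1 in 23. The member median of 0.59, against 0.18 for all genes, rested on clone B replicate 3 and on WT replicate 3: without the first it was -0.22 and without the second -0.007. The count was 1 without either of these libraries and without WT replicate 1. In that clone B replicate the summed fibroblast genes stood at 884 TPM, against 130 and 111 TPM in replicates 1 and 2. T and NK cell genes summed to 17.7 to 37.3 TPM in clone B and 2.77 to 7.46 TPM in WT, with 3 of the 6 tested of 9 higher, and the part of either was not tested.

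Clone B of 6694c2 was lower than clone A in 3 members by limma, where 9.53% of all genes were called and 4.26% were lower. They were Cd14 (log2 change -0.72, SE 0.13, limma adjusted p = 0.00362), Cx3cr1 (log2 change -1.62, SE 0.33, limma adjusted p = 0.00875) and Ptprc (log2 change -1.97, SE 0.56, limma adjusted p = 0.0395). All 31 values were negative with a median of -2.06, and in 22 members every clone B library lay below every clone A library, against 13.8% of all genes. Without clone B replicate 3 the count was 29 and without the 3 libraries that stand apart 27. It was 5 without replicate 3 of 6419c5 WT, which enters through the shared spread, and 1 without clone B replicate 1 or 2. Neutrophil genes summed to 37.1 to 65.5 TPM in clone B and 167 to 349 TPM in clone A, with 6 of the 8 tested of 10 lower. Also lower were 5 of the 9 tested fibroblast genes, 3 of the 7 tested endothelial genes and 2 of the 6 tested T and NK cell genes. So were 1 of the 2 tested mast cell genes and 1 of the 6 tested epithelial genes, while 1 of the 3 tested dendritic cell genes was higher. The part of all these cells was not tested.

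The mean of both clones was set against WT in each line, which weighs the clones equally. In 6419c5 1 of 31 members was called by limma, where 7.38% of all genes were called and 3.40% were lower. Cd14 fell to a mean of 210.3 TPM over the clones, against 273 TPM in WT (log2 change -0.40, SE 0.11, limma adjusted p = 0.039). The call of Cd14 did not hold without WT replicate 2 or 3, clone A replicate 1 or 3, any 1 of the clone B libraries, or replicate 1 or 2 of 6694c2 clone B, with limma adjusted p from 0.00719 to 0.166 over 29 alternatives. Without WT replicate 3, and without the 3 libraries that stand apart, 1 other member was called and was higher. In 6694c2 8 of 31 rose, where 20.4% of all genes were called and 14.7% were higher. They were Mpeg1, Cybb, Ctss, Aif1, Ptprc, Sirpa, Cd86 and Cx3cr1. Mpeg1 had a mean of 60.6 TPM over the clones, against 5.91 TPM in WT (log2 change 2.90, SE 0.47, limma adjusted p = 0.000603), and Cybb had a mean of 44.6 TPM over the clones, against 6.08 TPM in WT (log2 change 2.67, SE 0.22, limma adjusted p = 6.92e-07). All 6 knockout libraries lay above all 3 WT libraries for Mpeg1, Cybb and Cx3cr1, and the ranges overlapped for the other 5 (13.2% of all genes lay above). The count was 13 without replicate 3 of 6419c5 WT, and 5, 14 and 4 without replicate 1, 2 or 3 of 6694c2 WT. The call of Sirpa held in 9 of 29 alternative settings, and those of the other 7 members in 25 or more. In this 6694c2 comparison 6 of the 8 tested neutrophil genes and 5 of the 6 tested T and NK cell genes were higher. So were 4 of the 9 tested fibroblast genes and 3 of the 7 tested endothelial genes. Lower were 3 of the 4 tested erythroid genes and 3 of the 6 tested epithelial genes. The part of all these cells was not tested.

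The difference of the knockout effect between the lines, 6694c2 minus 6419c5, was tested as an interaction. In each line the effect is the mean over both clones. In 6419c5 these differed, with member medians of 0.91 in clone A and -2.46 in clone B. By limma 6 of 31 members differed, all with the higher effect in 6694c2, where 8.71% of all genes were called and 5.78% were higher. They were Ctss (log2 change 3.18, SE 0.91, limma adjusted p = 0.0422), Mpeg1 (log2 change 3.10, SE 0.67, limma adjusted p = 0.0104), Ptprc (2.60), Cd86 (2.29), Cybb (log2 change 1.95, SE 0.31, limma adjusted p = 0.00162) and Cx3cr1 (1.75). All 6 were also called lower in 6694c2 WT than in 6419c5 WT, as were 32.2% of all genes, and both WT groups enter this contrast. The count was 3 without replicate 3 of 6419c5 WT, without replicate 1 of 6419c5 clone B, and without replicate 1 or replicate 3 of 6694c2 WT. Of the 8 tested of 10 neutrophil genes 4 also had the higher effect in 6694c2, and their part was not tested.

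Between the WT groups, 30 of 31 members had a value below 0 for 6694c2 minus 6419c5, but the number called depended on single libraries. By limma 19 of 31 members were lower in 6694c2 than in 6419c5, where 46.3% of all genes were called and 32.2% were lower. The median was -2.06, against -0.22 for all genes, and median-of-ratios scaling moved that all-gene median to -0.02. In 11 members every 6694c2 library lay below every 6419c5 library, against 32.6% of all genes, so the share of the members was close to the background. Of the members called, Cd163 differed most, at 14.3 ± 17.6 TPM in 6694c2 and 93.5 ± 95.01 TPM in 6419c5 (log2 change -2.82, SE 0.96, limma adjusted p = 0.0254), followed by Mpeg1 (log2 change -2.54, SE 0.55, limma adjusted p = 0.0015), Lyz2 (-2.47) and Tyrobp (-2.37). Cd53 had 0.22 (limma adjusted p = 0.737), the sole value above 0. The count was 4 without replicate 3 of 6419c5 WT, and 8, 29 and 5 without replicate 1, 2 or 3 of 6694c2 WT. With median-of-ratios scaling it was 10. Neutrophil genes summed to 18.7 to 27.9 TPM in 6694c2 and 51.1 to 78.6 TPM in 6419c5, with 4 of the 8 tested of 10 lower. Also lower were 5 of the 6 tested epithelial genes, 2 of the 9 tested fibroblast genes, 1 of the 7 tested endothelial genes and 1 of the 2 tested mast cell genes. Of the 3 tested dendritic cell genes 1 was higher. The part of all these cells was not tested.

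Each member was also set against Csf1r within a library. Of 30 members 15 kept a ratio to Csf1r that varied by less than 4-fold over the 18 libraries, over which Csf1r itself ranged from 4.39 to 363 TPM. C1qc (1.59-fold), Adgre1 (1.61-fold), C1qa (1.71-fold), Apoe (1.94-fold) and C1qb (2.21-fold) varied least. These ratios share the library and its total, so they are given as a description. In 6 members the ratio varied 10-fold or more, namely Cd53 (79.2-fold), Cybb (54.18-fold), Cd14 (45.92-fold), Cx3cr1 (21.84-fold), Mpeg1 (11.34-fold) and Lgmn (10.57-fold). For Cd14 the ratio was highest, at 36.3, in 6694c2 WT replicate 3, where Csf1r was lowest, and lowest, at 0.790, in 6419c5 clone A replicate 2, where Csf1r was highest. For Cd53 the highest ratio, 10.1, was in the same 6694c2 WT library.

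**Figure D4:**
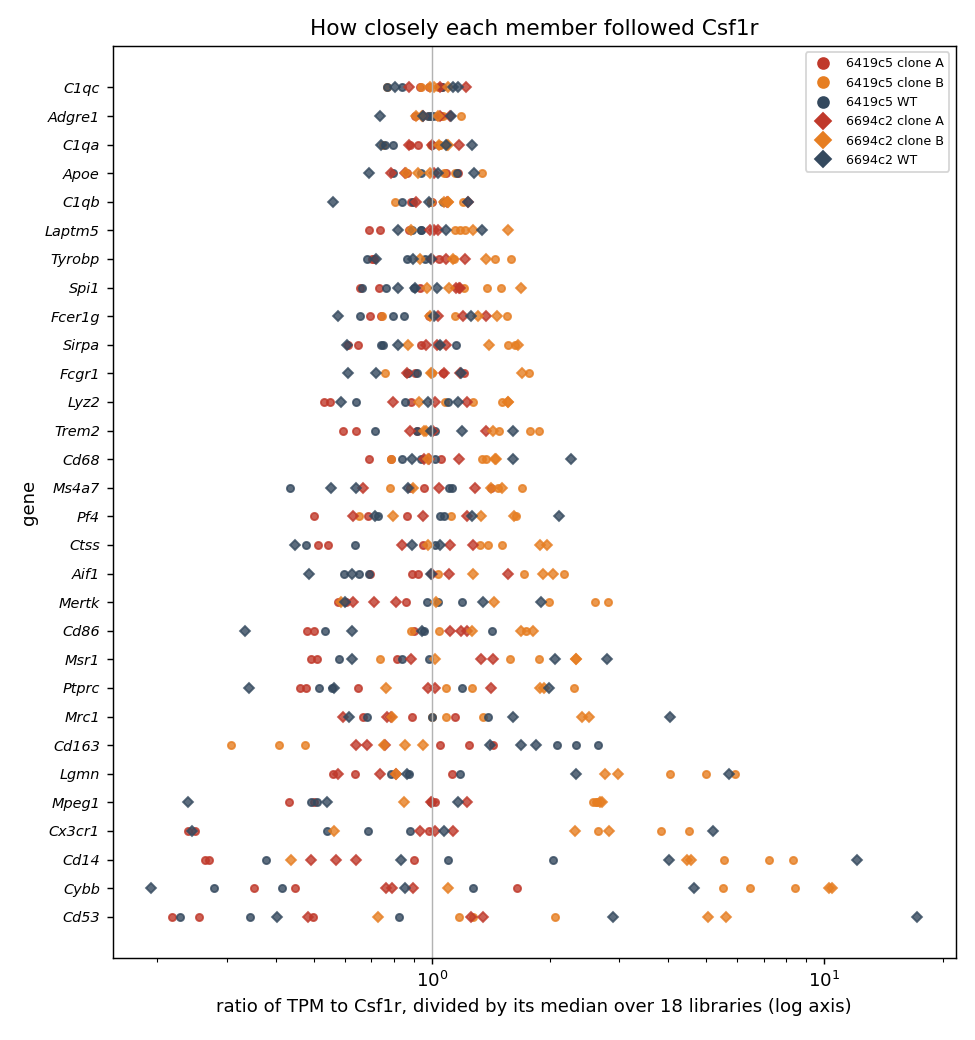
Ratio of each member's TPM to that of Csf1r in the 18 libraries, divided by its median over the libraries (log axis), with circles for 6419c5, diamonds for 6694c2 and members ordered by how much the ratio varied. C1qc and Adgre1 stay within 1.59-fold and 1.61-fold, while Cd53 at the bottom spreads over 79.2-fold.

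Cybb, Mpeg1 and Cd163 are the members whose ratio was also followed by group. For Cybb the ratio to Csf1r was 0.137 to 0.640 in 6419c5 clone A, 2.14 to 3.27 in clone B and 0.108 to 0.495 in WT. In 6694c2 it was 0.298 to 0.350 in clone A, 0.429 to 4.06 in clone B and 0.0750 to 1.81 in WT. Mpeg1 stood at 0.254 to 0.597 times Csf1r in 6419c5 clone A, 1.51 to 1.55 in clone B and 0.289 to 0.586 in WT. In 6694c2 the same ratio was 0.583 to 0.722 in clone A, 0.5001 to 1.60 in clone B and 0.141 to 0.683 in WT. For Cybb and Mpeg1 the ratio lay apart from WT only in 6419c5 clone B, where it was above WT, and overlapped with WT in the other clones. Cd163 stood at 0.304 to 0.414 times Csf1r in 6419c5 clone A and 0.0895 to 0.138 in clone B, both below the 0.606 to 0.768 of WT. In 6694c2 Cd163 stood at 0.186 to 0.220 times Csf1r in clone A and 0.219 to 0.276 in clone B, again below the 0.409 to 0.534 of WT. The knockout and WT ranges of this ratio did not overlap for any of the 4 clones, although the level of Cd163 itself did for 3 of them. Cd163 was chosen after its values were seen, and the clones of a line share their WT libraries. How many other ratios to Csf1r also lie apart was not counted.

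**Figure D5:**
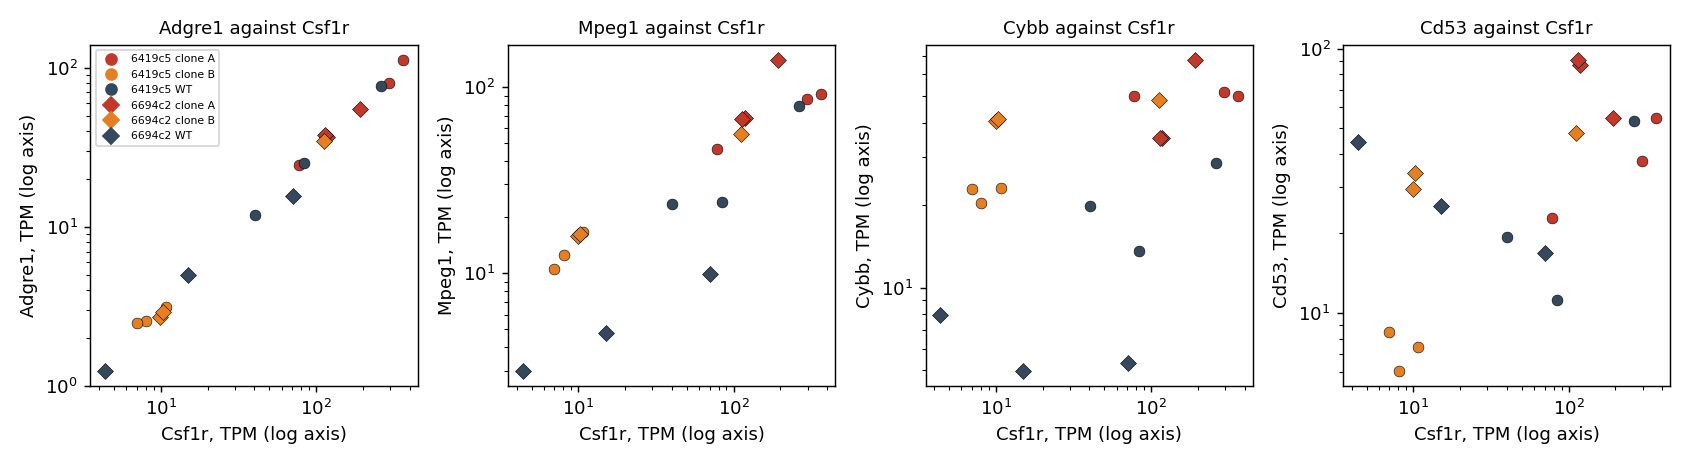
TPM of Adgre1, Mpeg1, Cybb and Cd53 against TPM of Csf1r in the 18 libraries (log axes), with circles for 6419c5 and diamonds for 6694c2, red and orange for clones A and B and dark blue for WT. Adgre1 lies along 1 line at 0.220 to 0.354 times Csf1r, whereas Cybb in the WT libraries of 6694c2 lies at 4.98 to 7.94 TPM whatever the level of Csf1r.

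The same fit was repeated with the C1q level of each library (the mean log2(TPM + 1) of the 3 C1q genes) as a covariate, an alternative added after the data were seen, for the other 28 members. Cd163 was then lower by limma in all 4 clones, with values of -0.88 (adjusted p = 0.0265) in 6419c5 clone A, -2.21 (adjusted p = 0.00014) in clone B, -1.03 (adjusted p = 0.0163) in 6694c2 clone A and -0.88 (adjusted p = 0.00894) in clone B. Cybb was higher in 3 clones, at 1.28 (adjusted p = 0.0105) in 6419c5 clone A, 2.61 (adjusted p = 0.000108) in 6694c2 clone A and 2.65 (adjusted p = 6.01e-06) in 6694c2 clone B, and in 6419c5 clone B it had 0.23 (adjusted p = 0.665). Mpeg1 was higher in both clones of 6694c2, at 2.39 (adjusted p = 8.78e-05) in clone A and 1.76 (adjusted p = 0.000107) in clone B. So was Ctss, at 1.454 (limma adjusted p = 0.000141) in clone A and 1.077 (limma adjusted p = 0.00018) in clone B. Aif1 was higher in both as well, at 1.25 (limma adjusted p = 0.0282) in clone A and 0.967 (limma adjusted p = 0.0269) in clone B. The clones of a line share their WT libraries, so these values are not independent of each other. Against WT 3 members remained lower in 6419c5 clone B, namely Mrc1 (-1.53), Cd163 and Cd14 (-0.42), and 10 were higher and 1 lower in 6694c2 clone A. In that fit 10.9% of all genes were lower in 6419c5 clone B, and 12.4% were higher and 4.51% lower in 6694c2 clone A. Between the clones of 6419c5, Mrc1 (-1.85) and Cd163 (-1.33) were lower in clone B than in clone A, where 9.37% of all genes were lower. There the C1q genes summed to 62.8 to 137 TPM in clone B, against 941 to 4068 TPM in clone A, with no overlap. Against WT they summed to 62.8 to 137 TPM in 6419c5 clone B and 385 to 3185 TPM in WT, and to 1428 to 1988 TPM in 6694c2 clone A and 35.8 to 878 TPM in WT, again with no overlap. The covariate and the clone can hardly be separated in these 3 comparisons.

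Other genes of the same pathways were counted from lists written by pathway, with earlier results of these data known. Csf1, the ligand of the CSF1 receptor, rose in all 4 clones, while Csf1r was lower in 6419c5 clone B and higher in 6694c2 clone A. The call of Csf1r held in 22 of 29 alternative settings in 6419c5 clone B and in 6 of 29 in 6694c2 clone A, where its limma adjusted p ran from 0.0149 to 0.615. Csf1 had 64.3, 50.99 and 48.7 TPM in 6419c5 clone A, with 24.4, 33.7 and 26.5 TPM in clone B, and 15.6, 16.97 and 13.02 TPM in WT. In 6694c2 Csf1 had 17.4, 19.3 and 19.6 TPM in clone A, with 15.5, 13.3 and 22.98 TPM in clone B, and 4.69, 4.59 and 3.34 TPM in WT. Every knockout library lay above every WT library of its line. The log2 changes were 1.78 in 6419c5 clone A (limma adjusted p = 2.5e-05), 0.85 in 6419c5 clone B (limma adjusted p = 0.00569), 1.93 in 6694c2 clone A (limma adjusted p = 5.24e-06) and 1.79 in 6694c2 clone B (limma adjusted p = 9.34e-06). Il34, the other ligand of the receptor, stood at 19.3 to 42.3 TPM over the 18 libraries. For 6419c5 the Il34 level was 35.4 to 42.3 TPM in clone B, above the 26.6 to 29.95 TPM of WT and the 21.05 to 27.6 TPM of clone A. In 6694c2 both clones overlapped with WT for Il34. Csf2, which encodes the ligand GM-CSF, had 1.54, 3.73 and 3.78 TPM in 6694c2 clone A, with 6.51, 5.88 and 1.72 TPM in clone B, and 15.8, 8.80 and 13 TPM in WT. In 6419c5 it had 4.83, 3.15 and 1.30 TPM in clone A, with 0.726, 0.811 and 0.481 TPM in clone B, and 4.37, 2.93 and 3.83 TPM in WT. Csf2 was lower in 3 clones, by log2 changes of -1.77 in 6694c2 clone A (limma adjusted p = 0.00568), -1.34 in 6694c2 clone B (0.0346) and -1.49 in 6419c5 clone B (0.0173), with -0.29 in 6419c5 clone A (0.797). The GM-CSF receptor chains Csf2ra and Csf2rb were higher in 6694c2 clone A (1.57 and 2.65) and lower in 6419c5 clone B (-2.39 and -1.86), each passing limma's test.

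The counts that follow stand beside 14.7% of all genes higher in 6694c2 clone A, 11.0% lower in 6419c5 clone B, and 18.9% lower in 6419c5 clone B than in clone A. Of 12 genes of Fc receptor and ITAM signalling 10 were higher in 6694c2 clone A than in WT, led by Clec7a (3.75), the beta-glucan receptor Dectin-1, and Fcgr4 (3.42), a receptor for IgG. In 6419c5 clone B 5 of the 12 were lower than in WT, with Fcgr2b (-3.37) and Fcgr3 (-2.85) first, and all 12 were lower than in clone A. The median of the 12 was 2.39 in 6694c2 clone A and -1.75 in 6419c5 clone B. Among partners of NOX2 in the oxidase, Ncf4 (2.77), Rac2 (2.54) and Ncf1 (2.23) were higher in 6694c2 clone A. In 6419c5 clone B Ncf1 (-2.79) and Cyba (-1.08) were lower, while Cybb itself was not. Of 11 leukocyte integrin and leukocyte-wide genes 10 were higher in 6694c2 clone A, with Cd52 (3.73) and Coro1a (3.33) first, and 4 were lower in 6419c5 clone B, with Itgam (-2.96) first, at medians of 2.94 and -1.96. Among myeloid transcription factors Irf8 (2.55) was higher in 6694c2 clone A. In 6419c5 clone B Irf8 (-1.66) and Cebpb (-0.65) were lower, and the lipid sensor gene Nr1h3 was higher (0.48). Of 12 lysosomal genes that most cells express 4 were higher in 6694c2 clone A, with Psap (1.47) first, and 2 were lower in 6419c5 clone B, Ctsd (-0.81) and Lamp1 (-0.42).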

How the data were processed

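The authors deposited 1 table of TPM (relative transcript abundance, corrected for length) for 18 RNA-seq libraries, made with Salmon on mm10, per the submitters' processing notes; versions are not given in the sources used here. Per the labels, total RNA was extracted from sorted tumor cells. The table's name mentions a batch, and whether values were adjusted for it is not stated. TPM keeps no read depth, so no counting interval is given. The clone columns carry the letters A and B, taken as the first and second knockout clone of the labels, which affects clone names only.

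Differences were tested with limma 3.58.1 (R 4.3.3) on log2(TPM + 1), over the 13422 genes whose mean TPM reached 1, with 6 group means (12 residual degrees of freedom), a mean-variance trend and Benjamini-Hochberg adjustment over all genes tested, at 0.05. A fold change on this scale understates the change of low genes. The procedure was tested on simulated data with noise drawn independently for each gene. The members mostly moved together by library, so that test does not cover such shared shifts. Alternatives changed the pseudocount, filter, scaling, replicate block, libraries fitted and weights, and left out each library. Python 3.11.15, pandas 2.3.3 and matplotlib 3.10.9 made summaries and figures.

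The members and gene lists were chosen with earlier results of these data known. In each role the members with the highest and lowest mean were given in every library, and up to 4 called genes each way were named in each comparison and list. Cd163 and Cd53 were also given in every library, chosen after their values were seen. Values after ± are SDs (n = 3). Gene positions are from GENCODE M21 (GRCm38) and promoters from RefSeq (GRCm38.p6). Some results of the pathway lists are not reported here.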

Additional observations from a re-analysis of the deposited data

Results flagged for a closer look

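For 6 members the knockout effect in 6694c2 minus that in 6419c5, tested as an interaction over the mean of both clones, passed limma's adjusted threshold. Of all genes tested 8.71% passed it, and 5.78% passed with the higher effect in 6694c2. The 6 members were also called lower in 6694c2 WT than in 6419c5 WT. The differences of log2 changes were 3.181 for Ctss, 3.104 for Mpeg1, 2.595 for Ptprc, 2.294 for Cd86, 1.946 for Cybb and 1.752 for Cx3cr1. Over 29 alternative settings the call held in 29 for Cybb, in 28 for Mpeg1, in 22 for Ptprc and in 13 for Ctss, and over 28 settings in 27 for Cx3cr1 and in 11 for Cd86.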

How the results depend on the processing

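Counts of members called moved with the libraries used. Apart from the covariate shares above, the share of all genes called in each alternative setting is not given. A change of a count is therefore not read as particular to the members. Leaving out 1 library gave 0 to 2 members for the clone mean against WT in 6419c5 (1 with all libraries) and 4 to 14 in 6694c2 (8). Against WT it gave 1 to 1 in 6419c5 clone A (1), 3 to 26 in 6419c5 clone B (21), 8 to 29 in 6694c2 clone A (25) and 1 to 2 in 6694c2 clone B (2). Clone B against clone A gave 26 to 31 in 6419c5 (31) and 1 to 29 in 6694c2 (3), the WT lines 4 to 29 (19) and the difference of effects 3 to 9 (6). For the clone mean in 6419c5, 1 member was higher in place of 1 lower with median-of-ratios scaling, without 6419c5 WT replicate 3 and without the 3 libraries that stand apart.

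Without a filter the counts were 0 for the clone mean in 6419c5, 13 for 6419c5 clone B and 12 for the WT lines. In a fit of the compared groups alone they were 0 for the clone mean in 6419c5, 0 for 6419c5 clone A, 13 for 6419c5 clone B, 15 for 6694c2 clone A, 1 for 6694c2 clone B and 4 for the WT lines. Library weights gave 3 and 1 for the clone means in 6419c5 and 6694c2, 5 and 1 for 6694c2 clones A and B, 30 for 6694c2 clone B against A, 4 for the WT lines and 2 for the difference. Quantile normalization gave 2 for the clone mean in 6419c5, 1 for 6694c2 clone B and 9 for the WT lines, and median-of-ratios scaling 10 for the WT lines. Without the 3 libraries the counts were 4 and 6 for 6419c5 clones A and B, 27 for 6694c2 clone B against A, 7 for the WT lines and 3 for the difference.

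With the C1q covariate, chosen after seeing the data, they were 2 and 12 for the clone means in 6419c5 and 6694c2, 2 and 3 for 6419c5 clones A and B, 11 and 6 for 6694c2 clones A and B, 2 and 1 for clone B against A in 6419c5 and 6694c2, and 10 for the WT lines. In 6419c5 clone B against A the covariate turned Spi1 (0.035), Tyrobp (0.025), Trem2 (0.451), Mertk (0.027), Lgmn (0.198) and Apoe (0.135) positive, none of them called. The causes of these changes were not tested.

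Correlations of same-numbered deviations from the group means ran from -0.378 to 0.481. In none of the pairs of groups examined (within each line, and WT against WT) were all over 0.1. For 6419c5 clone A and WT all were above 0, at 0.481, 0.073 and 0.144. With 3 libraries a group these correlations cannot show whether replicate numbers pair the libraries. A replicate block gave 0 for the clone mean in 6419c5, 7 for that in 6694c2, 1 and 20 for 6419c5 clones A and B, 21 and 2 for 6694c2 clones A and B, 31 and 3 for clone B against A in 6419c5 and 6694c2, 17 for the WT lines and 5 for the difference.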
